A study of Homo sapiens with 6 samples.

Results

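The bodies of very long protein-coding genes were examined for binding of the Tandem-Tudor domain (TTD) from UHRF1, a human chromatin protein. A gene was taken as very long when its GENCODE record on chromosomes 1 to 22 spanned at least 500 kb, which was the case for 309 of 19111 protein-coding genes. The rule used length alone and no binding value. The other 18802 genes of the same chromosomes are called shorter genes here. The very long genes had a median length of 726 kb, 67 of them reached 1 Mb, and together they made up 8.89% of the autosomal sequence. The binding data come from HepG2, a cell line derived from a human liver hepatoblastoma and used without treatment. In CIDOP-seq, a reading domain takes the place of a ChIP antibody, and GST-tagged TTD (residues 126 to 280 of UHRF1) was used to pull down native mononucleosomes cut by micrococcal nuclease. The series comprised 6 libraries, 2 biological replicates each of TTD CIDOP, of ChIP against dimethylated lysine 9 of histone H3 (H3K9me2) and of input. The authors merged the 2 TTD replicates before they called peaks, so all values below rest on 1 list of 31569 broad peaks that holds positions and widths but no score, depth or replicate error.

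UHRF1 guides the maintenance of DNA methylation after replication, and its TTD holds the tail of histone H3 when lysine 9 carries 2 or 3 methyl groups, more tightly when lysine 4 also carries a single methyl group. H3K9me2 lies in broad blocks over silent chromatin, whereas H3K4me1 marks enhancers, many of which lie in introns. Very long genes consist almost wholly of introns, and many of them encode adhesion and synaptic proteins of neurons, while others encode broadly used enzymes and scaffolds.

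The bodies of the very long genes were poor in TTD peaks, but a small group of them was densely covered. With 1925 peaks whose midpoint lay inside them, they held 7.53 peaks per Mb (95% Poisson interval 7.20 to 7.87), against 14.1 per Mb in shorter genes and 9.34 per Mb outside protein-coding genes. Peaks covered 2.28% of their sequence, against 4.01% of shorter genes and 2.87% of the sequence outside protein-coding genes. FGGY, which encodes a carbohydrate kinase, had the largest cover at 26.8% of its length. RBFOX1, a neuronal splicing regulator and the longest gene, had 0.471%, and NRXN3, a presynaptic adhesion protein, had none. Intervals given with shares and densities cover counting error only. No test over genes was made, because genes are not replicates and the list has no replicate error.

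As 1 example of the DNA under a wide peak, which does not stand for other peaks, the central 300 bases of the widest peak of PLCB1, which had the third largest cover, are given. They were read on the plus strand of hg38, 5′ to 3′, with CG dinucleotides in capitals. The window is chr20:8252161-8252460 in a peak of 16820 bp.
PLCB1: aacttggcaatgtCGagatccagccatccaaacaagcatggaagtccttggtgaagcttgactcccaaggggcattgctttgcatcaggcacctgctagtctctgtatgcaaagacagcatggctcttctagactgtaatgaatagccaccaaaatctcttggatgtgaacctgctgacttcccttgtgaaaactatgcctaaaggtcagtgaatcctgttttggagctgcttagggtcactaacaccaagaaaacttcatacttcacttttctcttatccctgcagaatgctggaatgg
This window held 1 CG, and the centres of all 31166 autosomal peaks held a median of 2.00. Neither the letters TGTTTAC of a forkhead motif nor CAAAGTCCA of an HNF4A motif occurred in it on either strand. Over the 1925 peaks in very long genes, TGTTTAC was present in 8.10% of the 300-base centres (Wilson interval 6.97 to 9.41), against 6.09% (5.82 to 6.37) of the other 29241 autosomal peak centres. In the 24 genes with a cover of 10% or more, it was present in 6.70% (5.03 to 8.87) of 657 centres, close to the share elsewhere. The centres in very long genes had a median GC content of 41.7% and the others 43.7%, and the part of base composition in the motif share was not tested. CAAAGTCCA was present in 1.61% and 1.58% of the centres, respectively.

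For the ends of the genes, the sequences around the start of STPG2, CDKAL1, SUPT3H and SPAG16 are given, since these had the largest cover around the transcription start site (TSS) among the genes with a matching RefSeq start. Each runs on the gene's own strand from 250 bases before to 50 bases after the RefSeq start (GRCh38.p14). STPG2 is chr4:98143427-98143726 (minus strand), CDKAL1 is chr6:20534207-20534506 (plus), SUPT3H is chr6:45377885-45378184 (minus) and SPAG16 is chr2:213284214-213284513 (plus). Capitals mark CG and, near the 5′ end of SPAG16, the letters TGTTTAC.
STPG2: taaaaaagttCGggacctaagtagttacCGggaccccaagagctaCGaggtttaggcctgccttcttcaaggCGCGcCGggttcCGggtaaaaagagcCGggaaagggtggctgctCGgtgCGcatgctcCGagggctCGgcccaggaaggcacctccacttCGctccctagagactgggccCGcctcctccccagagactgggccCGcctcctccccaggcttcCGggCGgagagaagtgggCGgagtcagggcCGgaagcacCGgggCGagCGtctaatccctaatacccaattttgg
CDKAL1: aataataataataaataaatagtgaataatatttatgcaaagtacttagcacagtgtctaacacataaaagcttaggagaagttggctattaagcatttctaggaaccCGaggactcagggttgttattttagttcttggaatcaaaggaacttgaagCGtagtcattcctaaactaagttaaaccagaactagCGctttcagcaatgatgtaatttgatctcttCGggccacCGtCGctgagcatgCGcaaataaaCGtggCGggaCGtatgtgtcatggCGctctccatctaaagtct
SUPT3H: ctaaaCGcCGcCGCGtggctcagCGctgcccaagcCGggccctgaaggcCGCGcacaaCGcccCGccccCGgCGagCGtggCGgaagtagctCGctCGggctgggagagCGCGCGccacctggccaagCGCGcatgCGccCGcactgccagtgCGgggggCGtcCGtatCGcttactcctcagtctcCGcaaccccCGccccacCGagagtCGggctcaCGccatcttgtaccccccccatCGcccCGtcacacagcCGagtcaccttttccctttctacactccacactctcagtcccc
SPAG16: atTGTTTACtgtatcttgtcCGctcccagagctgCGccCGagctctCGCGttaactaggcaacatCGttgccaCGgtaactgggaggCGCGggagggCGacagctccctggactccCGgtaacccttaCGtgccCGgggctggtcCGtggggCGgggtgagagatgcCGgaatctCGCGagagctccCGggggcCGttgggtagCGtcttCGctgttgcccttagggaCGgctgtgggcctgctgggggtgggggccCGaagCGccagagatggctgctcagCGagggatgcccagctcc
These windows held 22, 11, 35 and 26 CG. RefSeq promoters were matched by symbol for 252 very long genes, of which 161 had a RefSeq start within 2.5 kb of the GENCODE start. Those 161 promoters held a median of 27.0 CG, against 14 in all 35116 promoters of the table. The sets are not alike, since the 161 were limited to protein-coding genes with a start near that of GENCODE, whereas the table was used whole. Where a TTD peak lay within 2.5 kb of the TSS the median was 24 (14 promoters), and without such a peak it was 27.0 (147 promoters). TGTTTAC was present in 2 of the 161 promoters, or 1.24% (Wilson interval 0.341 to 4.42), which cannot be told from the 3.42% of all promoters.

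Above 200 kb, pooled cover and peak density were lower in each longer class of genes. Cover was 3.40% in genes under 50 kb, 4.53% in genes of 100 to 200 kb and 4.01% in genes of 200 to 500 kb, and 3.21%, 1.88% and 1.60% in genes of 500 to 750 kb, 750 to 1000 kb and 1000 kb or more. The density of peaks took the same course, with 15.7 per Mb (15.2 to 16.2) at 100 to 200 kb and 5.15 per Mb (4.69 to 5.63) at 1000 kb or more. The Poisson intervals of the 3 classes above 500 kb did not overlap each other or that of any shorter class. These intervals take peaks as independent and do not cover the spread between genes. Median cover per gene was 1.10%, 0.664% and 0.626% in the 3 classes. The share of genes with a peak within 2.5 kb of the TSS was 8.98%, 6.67% and 11.9%, without a steady decline. Genes on either side of the length limit varied widely. Of the 4 genes just below it, RPS6KA2 (497.1 kb) had a cover of 0.453%, CACNA2D1 none, ITPR2 (497.8 kb) 13.5% and DIAPH3 (498.3 kb) 4.42%. Of the 4 just above it, ANO5 (500.9 kb) had 1.10%, SPOCK3 0.527%, KCNAB1 1.64% and PPFIA2 0.183%.

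**Figure D1:**
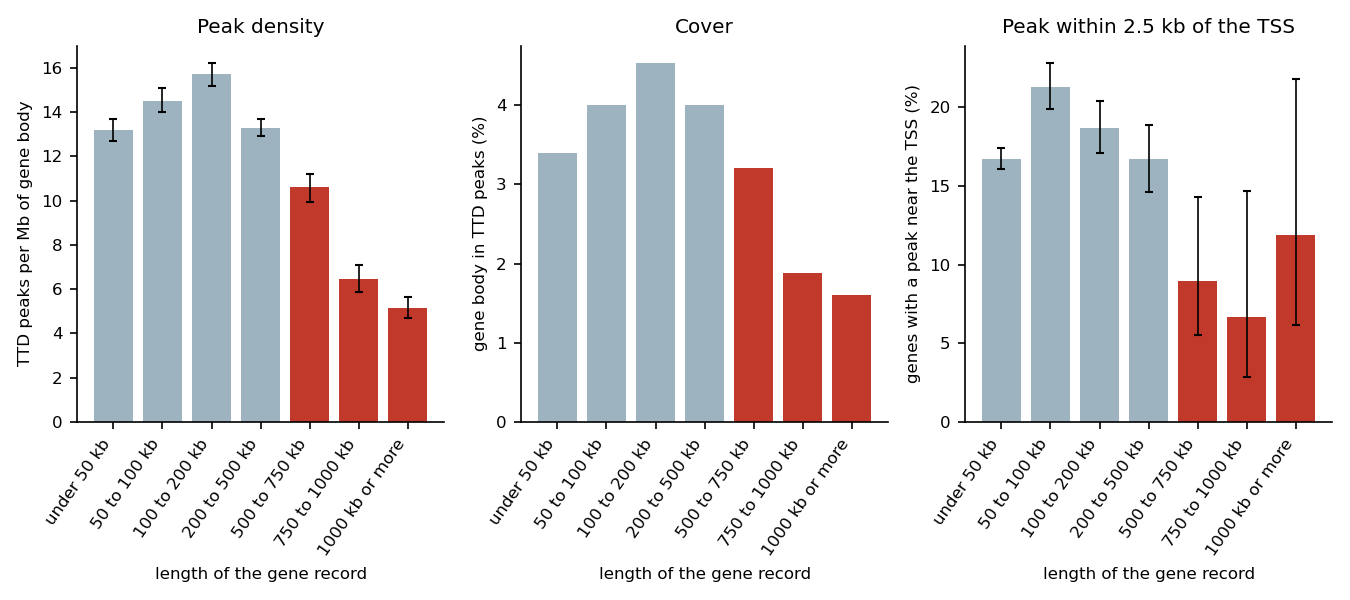
Peak density (peaks per Mb, bars with 95% Poisson intervals), cover (% of gene body) and share of genes with a peak within 2.5 kb of the TSS (bars with 95% Wilson intervals) by length of the gene record, with genes of 500 kb or more in red. Density is 15.7 per Mb at 100 to 200 kb and 5.15 per Mb at 1000 kb or more, and cover is 4.53% and 1.60% in the same classes.

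The lower cover was seen on most chromosomes. Of the 21 chromosomes with a very long gene, cover was lower than in the shorter genes on 18 and peak density on 19. The ratio of cover in very long to shorter genes had a median of 0.619 and ranged from 0.209 on chromosome 4 to 3.91 on chromosome 22. When shorter genes were weighted to the chromosomes of the very long genes, they had a cover of 4.11% and 14.3 peaks per Mb, and genes of 100 to 500 kb had a cover of 4.29%. The 3 chromosomes with a ratio above 1 were 17, 21 and 22, and few genes set their values. Chromosome 22 had 3 very long genes, among them SYN3, a synapsin, with 12.2% and TTC28 with 3.16%. On chromosome 21 the 25 peaks of RUNX1, a transcription factor of blood formation, stood beside 0 or 1 peak in DSCAM, NCAM2 and KCNJ6. On chromosome 17, PRKCA, BCAS3 and CEP112 had covers of 18.5%, 13.1% and 8.43%, whereas the other 4 genes had at most 1.07%. SYN3, TTC28, RUNX1, DSCAM, NCAM2, KCNJ6 and CEP112 were chosen after their values were seen. On chromosomes 2, 14, 16, 17 and 20, which are taken as gained in HepG2 from general knowledge of this line, the 53 very long genes had a median cover of 1.37%, against 0.662% on the other chromosomes. These 53 genes also included 11 of the 24 very long genes with a cover of 10% or more, EGLN3, PLCB1, PRKCA and RAD51B among them. The shorter genes had covers of 6.99%, 5.87%, 5.36%, 3.84% and 8.16% on chromosomes 2, 14, 16, 17 and 20, respectively. On all chromosomes together they had 4.01%, and on chromosome 6, which is not taken as gained, 6.40%. The list carries no correction for copy number, and its part in these values was not tested.

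A peak somewhere in the body was common, since 247 of 309 very long genes had at least 1, or 79.9% (Wilson interval 75.1 to 84.0). The background was 34.6% of shorter genes and 75.0% of genes of 100 to 500 kb, and among genes of 200 to 500 kb it was 81.7%, so the share in very long genes was close to that of other genes that offer a long target. A cover below that of the pooled shorter genes of the same chromosome was found for 247 of 309 very long genes as well, again 79.9% (75.1 to 84.0). This background was 78.7% of the shorter genes themselves, most of which hold no peak, and 66.9% of genes of 100 to 500 kb. The per-gene share is thus near the background of all shorter genes, and the difference stands in the pooled cover and against the genes of 100 to 500 kb.

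Cover varied widely among the very long genes. The median was 0.804% with quartiles of 0.169% and 2.88%. No peak was present in 62 genes (20.1%), 48 had 1 peak, 128 had 2 to 9, 70 had 10 or more and 25 had 20 or more. The 1 remaining gene, STPG2, was overlapped by a peak whose midpoint lay outside it, and it counts among the 247 genes with a body peak, which were found by any overlap. At the low end 164 genes had a cover under 1%. At the high end 24 genes had 10% or more, and these held 40.8% of all covered bases. The share of shorter genes with such a cover was not computed, so this group is not shown to be particular to very long genes. In genes of 200 to 500 kb the quartiles of cover were 0.441% and 5.24%. Only 40 genes held 50% of the peaks. Across the 309 genes, cover was weakly related to length (Spearman's rho −0.113), as a description over genes that share chromosomes and 1 peak list.

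**Figure D2:**
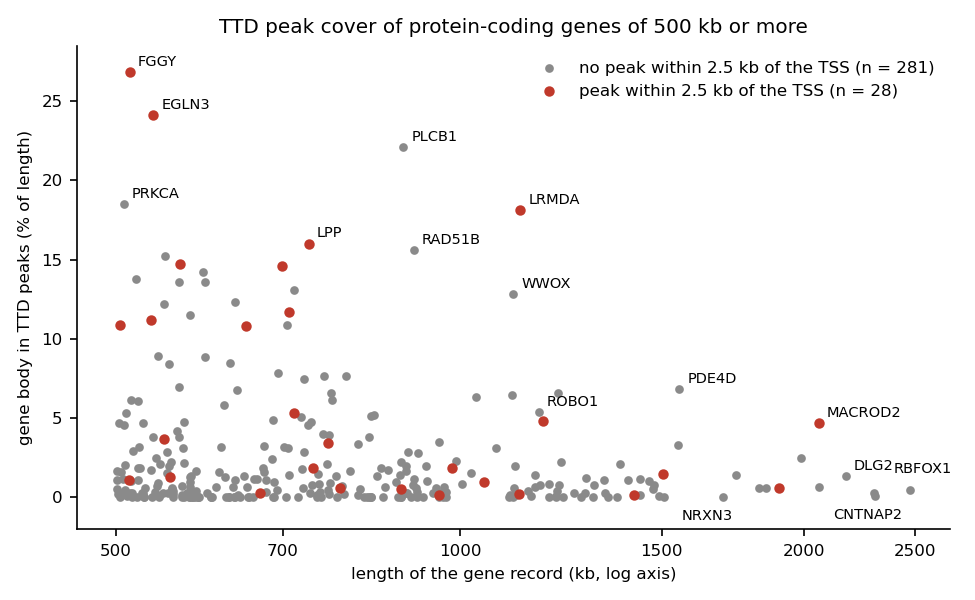
Cover of each of the 309 very long genes (% of the gene record in TTD peaks) against its length (kb, log axis), with the 28 genes that have a peak within 2.5 kb of the TSS in red. Most genes lie near 0 at every length, the largest covers (FGGY 26.8%, EGLN3 24.1%, PLCB1 22.1%) lie at 514, 539 and 891 kb, and RBFOX1, CNTNAP2 and NRXN3 lie near 0 at the right.

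The 8 genes with the largest cover differed in role and in the layout of their peaks. PLCB1, a phospholipase C that acts downstream of G proteins, had 41 peaks over 891 kb and a cover of 22.1%. Protein kinase C alpha, encoded by PRKCA, had 27 peaks over 508 kb and a cover of 18.5%. In both, the peaks were concentrated toward the 5′ part. When each body was divided into 5 equal parts, numbered from the 5′ end, part 1 of PLCB1 was covered to 46.2%. Its part 4 was covered to 1.57% and its part 5 to 15.7%. In PRKCA part 2 was covered to 50.7% and part 5 to 1.26%.

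FGGY had 37 peaks over 514 kb, or 7.73 times the cover of the shorter genes of chromosome 1, and its densest 100 kb held 12 peaks. Its 5 equal parts were covered to 14.7%, 27.2%, 40.2%, 37.0% and 15.0% from the 5′ end on, so no part was free of binding. LRMDA, a leucine-rich repeat protein linked to melanocyte differentiation, had the most peaks of all, 54 over 1129 kb, with a cover of 18.1%. Its parts 1 to 3 had covers between 24.3% and 27.6%, and part 5 had 3.07%. LPP, a LIM domain protein of focal adhesions, had 30 peaks and a cover of 16%. RAD51B, a protein of homologous recombination, had 43 peaks and a cover of 15.6%, with 0.802% in part 1 and 25.5% in part 5. PTPRK, a receptor-type tyrosine phosphatase of cell contacts, had 25 peaks and a cover of 15.2%. Among the genes with most peaks, WWOX, an oxidoreductase gene that spans a common fragile site, had 38 over 1113 kb and a cover of 12.8%.

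EGLN3, a prolyl hydroxylase that marks hypoxia-inducible factors for degradation, depended on the gene model. Its GENCODE record spans 539 kb and held 35 peaks with a cover of 24.1%, but its canonical transcript spans 26.8 kb, in which no base lay in a peak. The binding at EGLN3 was therefore in the part of the record that only longer transcripts reach. In NEBL, which encodes an actin-binding protein of heart muscle, the canonical transcript of 117 kb likewise held no peak, although the whole record had 4. In all, 68 very long genes had a canonical transcript under 500 kb, 5 of them among the 24 genes with a cover of 10% or more. For FGGY, PLCB1, PRKCA, LRMDA, LPP and PTPRK, the cover of the canonical transcript was 29.3%, 23.4%, 18.5%, 18.1%, 16% and 15.2%, and for RAD51B it was 12.3%.

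The longest genes had little binding. RBFOX1 had 8 peaks over 2474 kb, 7 of which lay in the first 515 kb and the remaining 1 at 1798 kb from the TSS. A stretch of 1281 kb without a peak lay between. The canonical transcript of RBFOX1, of 1694 kb, held 1 of these 8 peaks and had a cover of 0.175%. The Caspr2 gene CNTNAP2, whose product clusters potassium channels on axons, had 1 peak midpoint over 2305 kb, 2171 kb from the TSS. PTPRD, a synaptic receptor-type phosphatase, had 4 peaks over 2299 kb and a cover of 0.255%. DLG2, a scaffold of the postsynaptic density, had 14 peaks over 2173 kb, of which 10 lay in part 5 of 5. CSMD1, a large membrane protein that regulates complement, had 3 peaks over 2059.6 kb. MACROD2, an ADP-ribose hydrolase, stood apart among the 6 longest genes with 25 peaks over 2058 kb and a cover of 4.70%. Of these, 14 lay in part 3 of 5, which was covered to 18.0%, against at most 3.68% of the others. The widest peak in any very long gene, 27860 bp, lay there, 990.2 kb from the TSS.

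**Figure D3:**
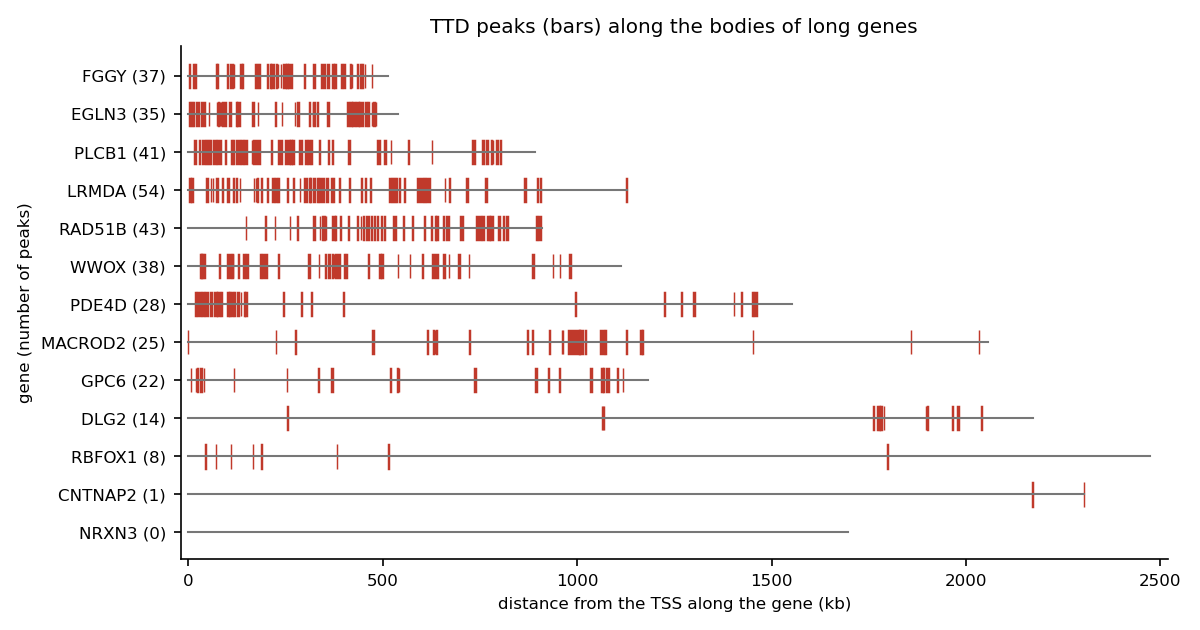
Position of TTD peaks (red bars, drawn at a minimum line width) along 13 very long genes, as distance from the TSS in kb, with the number of peak midpoints in brackets. PDE4D and PLCB1 are dense near the 5′ end, DLG2 near the 3′ end and MACROD2 in the middle, RBFOX1 has 7 of 8 peaks in its first 515 kb, and NRXN3 has no peak. PDE4D and GPC6 were added to the map after their values were seen.

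Among the 5 longest genes without any peak were NRXN3 (1698 kb), NAALADL2 (1372 kb), LRRC4C (1346 kb) and LINGO2 (1276 kb). NRXN3 encodes a neurexin, and LRRC4C and LINGO2 encode leucine-rich repeat membrane proteins of neurons. CSMD3, a relative of CSMD1, also had no peak over 1214 kb. The nearest peak to the TSS was 410.5 kb away for NRXN3, 305 kb for NAALADL2, 745 kb for LRRC4C, 893 kb for LINGO2 and 1218 kb for CSMD3. The sequence beside genes without a peak was also poor in binding. In the 62 such genes the median cover of the 500 kb upstream and downstream was 0.390% and 0.314%, and for 11 of them both flanks held no peak, LRRC4C among them.

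Over all very long genes, the flanks had medians of 1.68% upstream and 1.43% downstream, and in the 24 genes with a cover of 10% or more these were 4.69% and 3.49%. Body cover and the mean cover of both flanks were related across genes (Spearman's rho 0.465, n = 309), as a description of adjoining sequence on the same chromosome. The body was below both flanks in 102 genes and above both in 73. In LRMDA binding kept to the gene, with 18.1% in the body against 1.39% upstream and 0.210% downstream. PTPRK had 15.2% against 1.07% and 2.22%. CNTNAP2, in contrast, had 0.0615% in the body, no peak upstream and 6.66% in the 500 kb downstream. DLG2 had 1.33% in the body between flanks of 10.2% and 7.87%. GC content moved with some of these differences. Its median was 38.3% in very long genes, 40.4% in genes of 100 to 500 kb and 45.5% in shorter genes, and it was 39.5% in the 24 most covered genes and 37.2% in those without a peak. Cover and GC content had a rho of 0.260 across the very long genes and 0.0399 across the 3198 genes of 100 to 500 kb. The part of GC content in the lower cover was not tested.

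Binding at the TSS was less frequent than in other genes. A peak overlapped the window of 2.5 kb on each side of the TSS in 28 of 309 very long genes, or 9.06% (Wilson interval 6.34 to 12.8). The background was 17.7% of shorter genes (17.1 to 18.2) and 18.0% of genes of 100 to 500 kb, and 18.6% and 17.9% when weighted to the chromosomes of the very long genes. Unlike a peak in the body, this measure does not grow with the length of the gene. The TSS base itself lay in a peak in 4 genes, namely MACROD2, NEBL, STPG2 and WDPCP. The median distance from the TSS to the nearest peak was 70.5 kb, against 25.1 kb in genes of 100 to 500 kb, and it was over 100 kb in 131 genes and over 1 Mb in 12.

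The 8 genes with the largest cover of this window fell into 2 kinds. NEBL (79.2% of the window), STPG2 (76.8%) and SPAG16 (39.4%), a gene for a protein of the sperm tail axoneme, had little binding in the rest of the gene. The peak of STPG2 was 3840 bp wide with its midpoint 0.265 kb upstream of the TSS, and no other peak lay in the 959 kb of this gene, so its body cover was 0.173%. SPAG16 had 2 peaks over 1126 kb and a body cover of 0.189%, and NEBL had 4 peaks and 1.09%. In contrast, CDKAL1 (52.7%), EGLN3 (49.7%), SUPT3H (43.6%), CPQ (41.4%) and WDPCP (40.4%) were also covered along the body, to between 10.9% in CPQ and 24.1% in EGLN3. CDKAL1, a tRNA-modifying enzyme, had 32 peaks and covers between 10.6% and 17.1% in its 5 parts. SUPT3H encodes a subunit of SAGA-type coactivator complexes, CPQ a secreted carboxypeptidase, and WDPCP a protein of cilium formation. In NEBL, EGLN3 and WDPCP the window lies at the start of longer transcripts, outside the canonical transcript. Over all very long genes, the median body cover was 3.56% with a peak at the TSS and 0.721% without. When the first 50 kb were left out, these medians were 3.05% and 0.723%. Of the 24 genes with a cover of 10% or more, 10 had a TSS peak and 14, PLCB1, PRKCA and WWOX among them, had none.

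By distance, the base pairs just downstream of the TSS were the least covered. Mean cover was 0.804% in the first 1 kb downstream, where 4 genes had any, and 3.49% in the 1 kb upstream. The genes of 100 to 500 kb had the same dip, with 2.93% and 6.18%, at a higher level. From 1 kb to 500 kb into the gene, cover in the very long genes stayed between 1.92% and 3.26%, without a decline. In the genes of 100 to 500 kb it was 6.72% at 2.5 to 5 kb and 3.19% at 300 to 400 kb, where 179 genes were long enough to contribute.

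**Figure D4:**
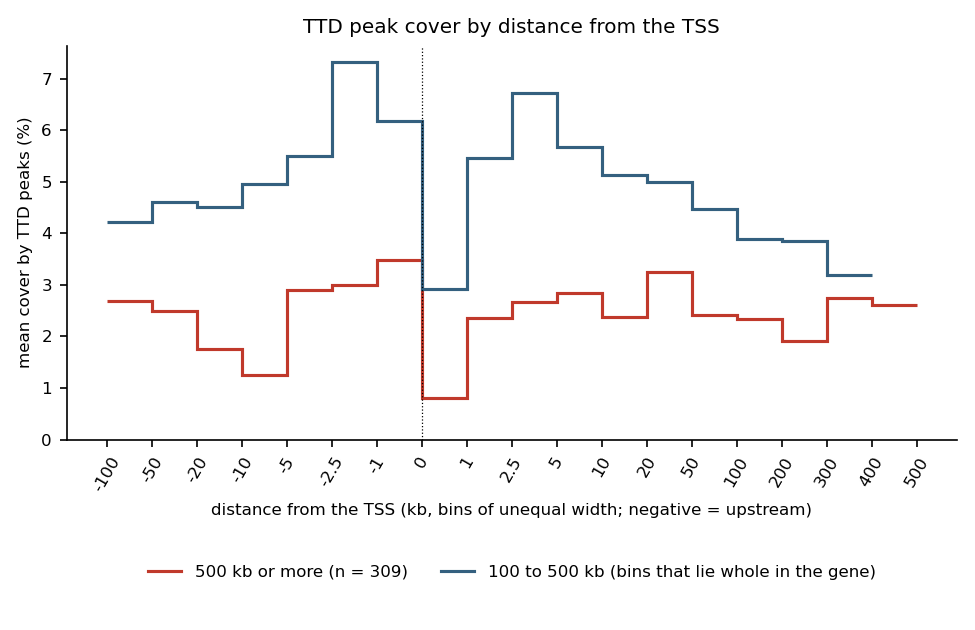
Mean cover by TTD peaks (% of bases) against distance from the TSS in kb, in bins of unequal width, for the 309 very long genes (red) and for genes of 100 to 500 kb (blue, each bin over genes that contain it whole). Both lines dip in the first 1 kb downstream, to 0.804% and 2.93%, and the red line lies below the blue one in every bin that both have.

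Peaks were spread over the whole body. When each gene was divided into 10 equal parts, pooled cover was 2.64% in part 1, lowest in part 3 at 1.63% and highest in part 9 at 3.00%. Of 1944 peak midpoints, counted for each gene they lay in, 7.56% fell within the first 50 kb, which made up 6% of the length. The first intron of the canonical transcript held 13.4% of midpoints and 16.2% of the length. Other starts of the same gene, over 10 kb from the gene's own TSS, had 4.68% of midpoints within 2.5 kb, against 3.55% of the length. An exon of the gene was touched by 170 peaks, or 8.74%, while exons made up 1.56% of the length. These last shares are not the same quantity, since a peak is wider than most exons and touches them with any of its bases. Of the 8 most covered genes, FGGY had the most such peaks, 9, and PRKCA and PTPRK had 1 each.

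Single peaks in very long genes were about as wide as elsewhere. Their median width was 2370 bp, against 2200 bp in shorter genes and 2280 bp outside protein-coding genes. Peaks of 10 kb or more made up 2.44% (Wilson interval 1.84 to 3.23), 1.72% (1.51 to 1.94) and 2.84% (2.58 to 3.11), respectively. The low cover thus went with fewer peaks rather than narrower ones. The widest peaks after that of MACROD2 lay in UTRN, which encodes utrophin, a relative of dystrophin, with 23790 bp at 369 kb from the TSS, and in ELMO1, a partner of DOCK proteins in Rac activation, with 20540 bp at 471 kb. UTRN had 19 peaks and a cover of 13.6%, and ELMO1 had 16 and 14.2%. Where a gene had 10 or more peaks, the densest 100 kb held a median of 7, and up to 12, as in FGGY, PRKCA and BCAS3, and no value for even spacing was computed. The longest stretch without a peak had a median of 441 kb over all very long genes, and it reached 1 Mb in 22 genes.

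For a view by role, genes were put into lists drawn up by hand from general knowledge, which are not complete: further very long enzymes, kinases, channels and guidance genes are in no list, FGGY, EGLN3, PRKD1, KCNJ6 and LINGO2 among them. All counts and medians below are those of the listed genes only. The lowest medians were those of the adhesion and the channel lists. Over all 309 very long genes, 79.9% were below the shorter genes of their chromosome and 20.1% had no peak, and the counts of each list are to be read against these shares. Of 43 genes listed for neuronal adhesion and axon guidance, 16 had no peak, 39 were below the shorter genes of their chromosome, and the median cover was 0.269%, against 0.804% over all 309. Only PTPRK, at 15.2%, exceeded 10%. The next was ROBO1, a receptor for SLIT guidance cues, with 15 peaks, a peak of 19310 bp and a cover of 5.37%. NRXN3 and LRRC4C were the longest members without a peak. All 21 genes listed for ion channels and neurotransmitter receptors were below the shorter genes of their chromosome, with a median of 0.400%. The largest covers in this list were 2.81% in TRPM3, a heat-sensitive cation channel, and 1.78% in CACNA1C, a subunit of the L-type calcium channel. GRM7, a metabotropic glutamate receptor, and FGF12, which modulates sodium channels, had no peak. The 10 listed cadherins, protocadherins and catenins were also all below, but with so few genes and a median of 0.708%, near the 0.804% of all, they are not set apart. Their covers ranged from no peak in CDH12 and PCDH9 to 1.85% in FAT3 and 1.96% in CTNND2.

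The 29 listed scaffold, polarity and cytoskeletal genes had the largest median, 3.13%, and 5 of them had a cover of 10% or more, among them LPP and UTRN. At the other end of this list, NAV3, a neuron navigator, and SNTG1, a syntrophin, had no peak. The 29 listed transcription, chromatin and RNA-binding regulators had a median of 1.33%, with SUPT3H at 14.7% and BCAS3 at 13.1%, and 6 of them, ESRRG and FOXP2 among them, had no peak, a share like that of all very long genes. ESRRG is an orphan nuclear receptor and FOXP2 a forkhead factor of brain development. The 30 listed signalling genes had a median of 0.922% with a wide range, from PLCB1 and PRKCA at the top to NRG3, a neuregulin, and DGKB, a diacylglycerol kinase, without a peak.

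The 27 listed metabolic enzymes and transporters had a median of 0.613%. Within this list WWOX was the most covered, followed by B3GALT1, a galactosyltransferase, with 14 peaks and 11.5%, whereas NAALADL2 and GALNTL6 had no peak. The 11 listed glypican, heparan sulphate and matrix genes each had at least 1 peak, with a median of 1.19%. THSD4, which promotes fibrillin assembly, had 4.85% and the glypican GPC6 had 4.82%, against 0.172% in the sulphotransferase HS6ST3 and 0.527% in SPOCK3. The 32 listed genes over common fragile sites, some of which are also in other lists, had a median of 1.41%, with WWOX at 12.8%, but NAALADL2 and DPYD, the first enzyme of pyrimidine breakdown, had no peak. The 110 genes in no list had a median of 1.06%, and 9 of them, FGGY, EGLN3 and LRMDA included, had a cover of 10% or more. The genes of a list are not independent of one another.

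**Figure D5:**
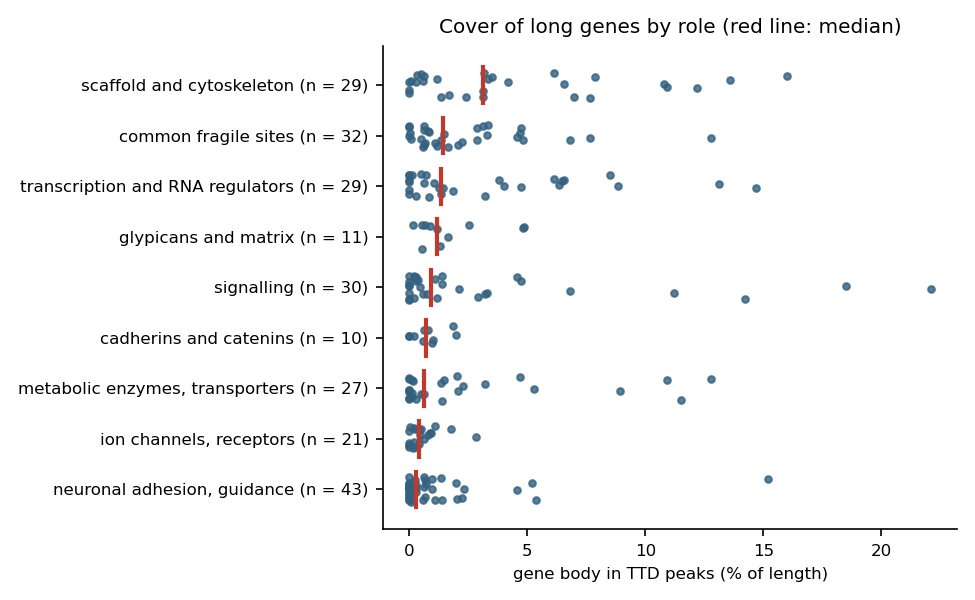
Cover of very long genes (% of the gene body in TTD peaks) by role, for the listed genes only, with 1 point per gene, vertical scatter for legibility only and the median as a red line. Neuronal adhesion genes have a median of 0.269% with PTPRK alone above 10%, whereas scaffold and cytoskeletal genes have a median of 3.13% and 5 genes at 10% or more.

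Members of some families differed, and the following families were chosen after their values were seen. How many families differed was not counted. FOXP1 had 17 peaks over 629 kb and a cover of 8.49%, whereas FOXP2 had none over 607 kb. NAV2 had 17 peaks and 6.56%, and NAV3 none. Among receptor-type tyrosine phosphatases, cover was 15.2% in PTPRK, 5.21% in PTPRM, 4.58% in PTPRG, 2.00% in PTPRT, 0.945% in PTPRN2 and 0.255% in PTPRD. In the protein kinase C family it was 18.5% in PRKCA and 11.2% in PRKCE, and 1.63% in the related kinase gene PRKD1. The phosphodiesterase PDE4D, which degrades cyclic AMP, had 28 peaks and 6.82%. Of these peaks, 18 lay in part 1 of 5, which was covered to 24.6%. Its canonical transcript of 925 kb held 8 of the 28 peaks, with a cover of 2.62%. PDE4B had 1 peak and 0.182%. The glypicans GPC6 and GPC5 differed as well, with 22 peaks over 1181 kb and 4 over 1475 kb.

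Some other families, also chosen after their values were seen, were alike over their gene records. The SoxD factors SOX5 and SOX6 had covers of 6.32% and 6.14%. Over their canonical transcripts these were 1.11% and 9.19%, so this likeness depended on the gene model. The teneurins TENM2, TENM3 and TENM4, adhesion receptors that help to wire neurons, had at most 2 peaks each. CSMD1, CSMD2 and CSMD3 had 3, 0 and 0 peaks. The sorting receptors SORCS1, SORCS2 and SORCS3 had 0, 1 and 0, and the ryanodine receptors RYR2 and RYR3, calcium release channels of muscle and brain, had 1 each.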

How the data were processed

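TTD CIDOP, H3K9me2 ChIP and input were each measured in 2 biological replicates of HepG2 cells. According to the study's methods and the submitters' processing notes, the authors used Trimmomatic 0.38 for trimming, HISAT2 2.2.1 for alignment to hg38 and deepTools 3.3.2 for RPKM tracks, averaged the 2 TTD replicates and called broad peaks with MACS2 2.1.1 at fixed cutoffs. Blacklisted regions and artifacts were removed, the latter by hand. The deposited list holds the position and width of each peak (bp) without a score, so the depth is unknown and a missing peak means only that no peak passed the authors' cutoff. The signal tracks were not analysed here.

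Gene records, exons and canonical transcripts were taken from GENCODE release 44, and the 5′ end of a record was taken as the TSS. Peaks were counted in a gene by their midpoint, whereas a gene with a peak in the body or at the TSS was one that a peak overlapped by any base. Cover is the percent of bases in peaks. Pooled values use the union of the records, so that no base counted more than 1 time. Shares have 95% Wilson intervals and densities exact Poisson intervals. Interval arithmetic was tested on simulated data, with 0 mismatches in 1050 comparisons. Motifs were searched on both strands. Python 3.11.15, numpy 2.4.6, scipy 1.17.1 and matplotlib 3.10.9 were used.

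The very long genes, the role lists and the naming rule were chosen with earlier results of these data known. Named were the 6 longest genes, the 8 with the largest cover, the 6 with most peaks, the 5 longest without a peak, the 8 with the largest TSS cover, the 3 with the widest peaks, 2 genes of the study's browser views and the 2 highest and 2 lowest of each list. Promoters were printed for up to 4 genes outside chromosome 8 whose RefSeq start lay within 2.5 kb of the TSS, a limit set after the data were seen. Some genes and sequences under these rules are not reported here. The alternatives tried were wider peaks only, other length limits, canonical transcripts, other TSS windows, other ways of counting and the chromosomes taken as gained left out.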

Additional observations from a re-analysis of the deposited data

How the results depend on the processing

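Of 9 alternatives computed for both groups, the share with a TSS peak was lower in very long than in shorter genes in all 9, and peak density and cover were lower in the 6 that change the body values. With the 15790 peaks that reached the median width (2250 bp), density was 4.05 per Mb, cover 1.81%, the share of genes with a body peak 62.5% and with a TSS peak 2.91%. With a length minimum of 400 kb, density was 8.52 and cover 2.58%. With 750 kb, density was 5.69, cover 1.72% and the share of genes below the shorter genes of their chromosome 85.9%. With 1 Mb these were 5.15, 1.60% and 88.1%, and 85.1% of genes had a body peak. The canonical transcripts gave 7.16 per Mb and 2.13%, and leaving out chromosomes 2, 14, 16, 17 and 20 gave 6.51 per Mb and 1.93%. The mean of the genes' own covers was 2.56%. With 1 kb on each side of the TSS, 4.85% of genes had a TSS peak. The other 20 values lay within the 95% interval of the value reported. For cover, this interval took each 150 bp of gene body as a separate unit. It is therefore narrow, at 2.26% to 2.30%, and small shifts in cover fall outside it. A smaller set of peaks can only lower density, cover and the shares of genes with a peak, and a smaller window can only lower the TSS share. The causes of the other shifts were not tested.

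No paired analysis was possible because the peak list, the only file analysed here, is pooled over the TTD replicates and no result comes from a test. For the same reason no fit without a replicate was run. The intervals take peaks and genes as independent, which neighbouring peaks are not, and depth, input signal and copy number are not part of the list.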
